A study of Mus musculus with 4 samples.

Results

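Cells detect double-stranded RNA with a small set of sensors and effectors, and 8 of their genes were followed here in irradiated mouse tumour cells: Ddx58, Ifih1, Dhx58, Mavs, Tlr3, Zbp1, Eif2ak2 and Adar. They were taken by name from a table of 26561 genes. All 8 were in it and passed the filter on low counts, Zbp1 only through the irradiated libraries. The cells were MC38, an established line from a mouse colon adenocarcinoma, labelled wild type. The IR group received 1 X-ray fraction of 30 Gy and gave its RNA 60 h later. The nonIR group was not irradiated. Each group has 2 libraries. The labels give no time of harvest for the nonIR cells, so time in culture and cell density cannot be told apart from irradiation. Whether the replicate libraries stem from separate cultures is not stated. The p-values therefore rest only on spread among these 4 libraries, pooled over genes by a fitted trend and possibly technical.

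Double-stranded RNA is a hallmark of viral replication, and cells also make it from their own repeats and mitochondrial transcripts. In the cytosol it is bound by the RIG-I-like receptors, which are helicases: RIG-I (gene Ddx58) and MDA5 (gene Ifih1) signal through MAVS, an adaptor on the mitochondrial surface, to switch on interferon genes, and LGP2 (gene Dhx58) tunes them. TLR3 reads the same ligand inside endosomes, PKR (gene Eif2ak2) answers it by halting translation, and ZBP1 binds the left-handed Z form and can start cell death. ADAR works in the other direction, editing adenosine to inosine in duplexes so that the cell's own RNA is not read as foreign. Most of these genes are themselves known to respond to interferon.

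Between 26059171 and 29881492 counts were assigned to genes in each library, and mitochondrially encoded genes took 2.56 to 2.59% of them in IR and 2.19 to 2.27% in nonIR. At these similar depths, 22713 and 22663 genes had at least 1 count in the IR libraries, against 19413 and 19531 in the nonIR libraries. Counts of a few in IR beside 0 in nonIR, for any gene named here, stand against that difference, whose part in them was not tested. The label calls MC38 an epithelial line, but its epithelial markers were mostly near 0. Epcam had 0 and 1 counts in IR and 0 in both nonIR libraries, and the keratin gene Krt18 had 2 and 3 counts in IR and 0 in both nonIR libraries. Krt8, another keratin gene, had 30 and 20 counts in IR and 6 and 3 in nonIR and was called higher (adjusted p = 0.00232). Krt8 passed the filter on low counts only through its IR libraries, so its direction was largely fixed in advance. Krt19 had 46 and 31 counts in IR and 50 and 53 in nonIR and was not called. Cdh1, which encodes E-cadherin, held most of that list, with 70.4 ± 3.72 CPM (counts per 1000000 of the scaled library size) in IR and 35.4 ± 1.24 CPM in nonIR. Vim, the mesenchymal filament gene, was at 3570 ± 16.7 CPM in IR and 4280 ± 26.5 CPM in nonIR (SD, n = 2 throughout), and was the only one of 5 mesenchymal markers called lower. Pdgfra, Pdgfrb and Col1a1 were called higher and Cdh2 was not called, and the median log2 fold change of the 5 was 0.50. Of 10 leukocyte markers, 8 were in the table, and their summed level was 32.7 to 38.7 CPM in IR and 4.04 to 5.02 CPM in nonIR. Nearly all of it was Cd68, a lysosomal membrane protein, at 34.6 ± 4.23 CPM in IR and 4.23 ± 0.555 CPM in nonIR. The pan-leukocyte gene Ptprc had 24 and 17 counts in IR and 10 and 6 in nonIR and was not called. Cd3e, Adgre1, Itgax and Flt3 were at 0 in both nonIR libraries and at 4 counts or fewer in each IR library. Markers other than Cdh1, Vim and Cd68 were picked with their values known. Of the markers, Cd68, Cdh1, Krt8, Pdgfra, Pdgfrb and Col1a1 were called higher in IR and Vim lower, and their part in the results was not tested.

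Because many of these genes are known interferon targets, their start regions were searched for the motif bound by interferon-activated factors. Promoter sequences from RefSeq (GRCm38.p6) were found for 6 of the 8 genes, Dhx58 and Zbp1 being the others, with 8 start sites in all because Adar has 3. The windows below run from 150 bases before to 50 bases after the start, 5′ to 3′ on the strand of the gene, for the 5 genes of these 6 whose transcripts were higher in IR and for Mavs, whose transcript did not pass the test. Capitals mark matches, on either strand, to the interferon-stimulated response element GAAANNGAAA or to its shorter core AANNGAAA, which every longer match contains. For Adar the third start is shown.
Ddx58, chr4:40239776-40239975, minus strand: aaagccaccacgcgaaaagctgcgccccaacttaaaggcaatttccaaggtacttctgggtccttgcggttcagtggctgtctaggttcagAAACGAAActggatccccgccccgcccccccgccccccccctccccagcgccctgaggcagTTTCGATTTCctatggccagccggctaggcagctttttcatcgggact
Ifih1, chr2:62646206-62646405, minus strand: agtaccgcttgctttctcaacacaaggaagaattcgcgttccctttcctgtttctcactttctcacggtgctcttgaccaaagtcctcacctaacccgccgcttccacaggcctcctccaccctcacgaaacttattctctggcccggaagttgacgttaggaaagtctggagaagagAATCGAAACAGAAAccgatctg
Eif2ak2, chr17:78882523-78882722, minus strand: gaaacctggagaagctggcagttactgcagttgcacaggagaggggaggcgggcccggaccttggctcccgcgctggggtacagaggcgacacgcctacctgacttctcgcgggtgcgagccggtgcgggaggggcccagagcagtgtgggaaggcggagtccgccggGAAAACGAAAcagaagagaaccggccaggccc
Adar, chr3:89730568-89730767, plus strand: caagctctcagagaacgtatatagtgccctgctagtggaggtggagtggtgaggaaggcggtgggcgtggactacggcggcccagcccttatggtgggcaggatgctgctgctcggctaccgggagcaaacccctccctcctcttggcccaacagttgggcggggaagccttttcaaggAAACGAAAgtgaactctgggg
Tlr3, chr8:45410331-45410530, minus strand: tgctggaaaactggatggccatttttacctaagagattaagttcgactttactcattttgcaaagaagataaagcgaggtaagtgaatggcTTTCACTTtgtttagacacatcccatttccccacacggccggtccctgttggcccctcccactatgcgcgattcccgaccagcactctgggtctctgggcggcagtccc
Mavs, chr2:131233913-131234112, plus strand: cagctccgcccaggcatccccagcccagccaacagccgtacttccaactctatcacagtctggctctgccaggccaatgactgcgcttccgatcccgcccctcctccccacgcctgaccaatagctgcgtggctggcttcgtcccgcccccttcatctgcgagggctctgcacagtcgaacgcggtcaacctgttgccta

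Positions are counted from the first transcribed base as 1, at the 5′ end of the match on the gene's strand, within the full window of 250 bases before and 50 after the start. The longer motif began at 3 in Ddx58 (on the opposite strand), at 33 in Ifih1 and at 19 in Eif2ak2. Of all 32851 RefSeq promoter windows of that length, 3.44% hold it. The shorter core occurred without the longer one at -59 in Ddx58, at 29 in Ifih1, at 30 at the third Adar start and, on the opposite strand, at -59 in Tlr3. It is common, and 23.9% of all windows hold it. Neither set of letters was in the Mavs window or in those of the other 2 Adar starts. A match is a description of letters and not of a bound site, and the shorter core was added after these sequences had been seen.

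Transcripts of 7 of the 8 genes were higher in irradiated cells and none was lower. Against this, 60.7% of the 15298 genes tested passed the threshold in either direction (edgeR quasi-likelihood test, Benjamini-Hochberg adjusted p under 0.05), 30.4% higher and 30.3% lower. The median log2 fold change was 1.62 over the 8 genes and 0.01 over all genes tested. In all 8, both IR libraries lay above both nonIR libraries in CPM, which was so for 39.7% of genes tested. The changes ran from 122-fold for Zbp1 to less than 1.1-fold for Mavs. Zbp1 passed the filter on low counts only through its IR libraries, so its call as higher was largely fixed in advance. In bulk RNA, a change in the number of cells that make a transcript and a change in the amount per cell cannot be told apart.

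**Figure D1:**
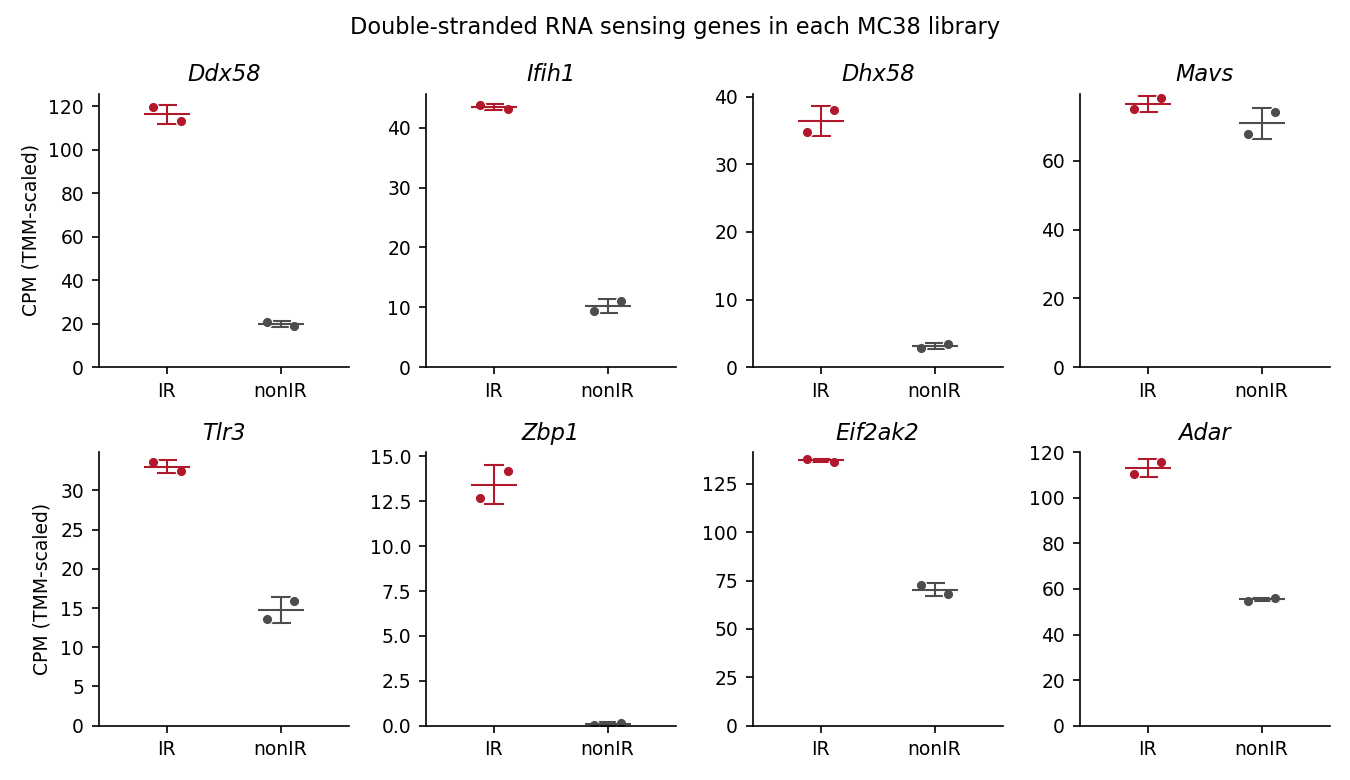
Level of each of the 8 genes (vertical axis, CPM on TMM-scaled library sizes, from 0) in the IR libraries (red) and the nonIR libraries (grey); points are libraries, bars the mean and SD (n = 2). The libraries of Ddx58, Ifih1, Dhx58, Zbp1, Tlr3, Eif2ak2 and Adar stand well apart by group, while those of Mavs lie between 67.8 and 78.2 CPM.

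The RIG-I-like receptor genes all rose. Ddx58 (ENSMUSG00000040296, chromosome 4, 40203773 to 40239828, GRCm38, minus strand) encodes RIG-I, which recognises RNA ends that carry a 5′ triphosphate. It had 3556 and 3005 counts in IR, against 576 and 555 in nonIR. Scaled to library size these were 119 and 113 CPM in IR and 20.96 and 19.01 CPM in nonIR, a 5.83-fold rise (log2 fold change 2.54, SE 0.06, adjusted p below 1e-300). The libraries of each group lay close together and the groups did not overlap.

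Ifih1 (ENSMUSG00000026896, chromosome 2, 62595798 to 62646255, minus strand) encodes MDA5, which assembles into filaments along long duplexes. It had 1304 and 1144 counts in IR and 259 and 324 in nonIR. Its level was 43.4 ± 0.503 CPM in IR and 10.3 ± 1.18 CPM in nonIR, a 4.23-fold rise (log2 fold change 2.08, SE 0.10, adjusted p = 5.09e-91). The lower nonIR library and the higher one differed more from each other than the IR libraries did, but both were far below IR.

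Dhx58 (ENSMUSG00000017830, chromosome 11, 100694884 to 100704271, minus strand) encodes LGP2, a relative without the signalling domains of the other receptors. It was scarce in nonIR cells, with 78 and 100 counts, and had 1037 and 1009 counts in IR. The level was 36.4 ± 2.24 CPM in IR and 3.13 ± 0.415 CPM in nonIR. The 11.6-fold rise (log2 fold change 3.53, SE 0.13, adjusted p = 1.80e-151) exceeded those of the other receptors, and the fitted 95% intervals of the 3 genes did not overlap: 9.67 to 13.9 for Dhx58, 5.34 to 6.36 for Ddx58 and 3.68 to 4.85 for Ifih1. Part of the exons of Dhx58, 141 bases, lies opposite the antisense gene Dhx58os, which itself had 68 and 60 counts in IR and 13 and 24 in nonIR.

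Mavs, the adaptor shared by RIG-I and MDA5, did not pass the test. Mavs (ENSMUSG00000037523, chromosome 2, 131234063 to 131248025, plus strand) had 2231 and 2077 counts in IR and 1862 and 2162 in nonIR. In CPM these were 74.9 and 78.2 in IR, against 67.8 and 74.1 in nonIR. The IR libraries were thus the higher ones by a narrow margin. The log2 fold change was 0.11 (SE 0.06, adjusted p = 0.0771), with a 95% interval from 1.00-fold to 1.16-fold. The call rests on 1 library: without nonIR replicate 2 the log2 fold change was 0.17 with adjusted p = 0.0274, whereas under the other 8 alternatives adjusted p ran from 0.0610 to 0.703.

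**Figure D2:**
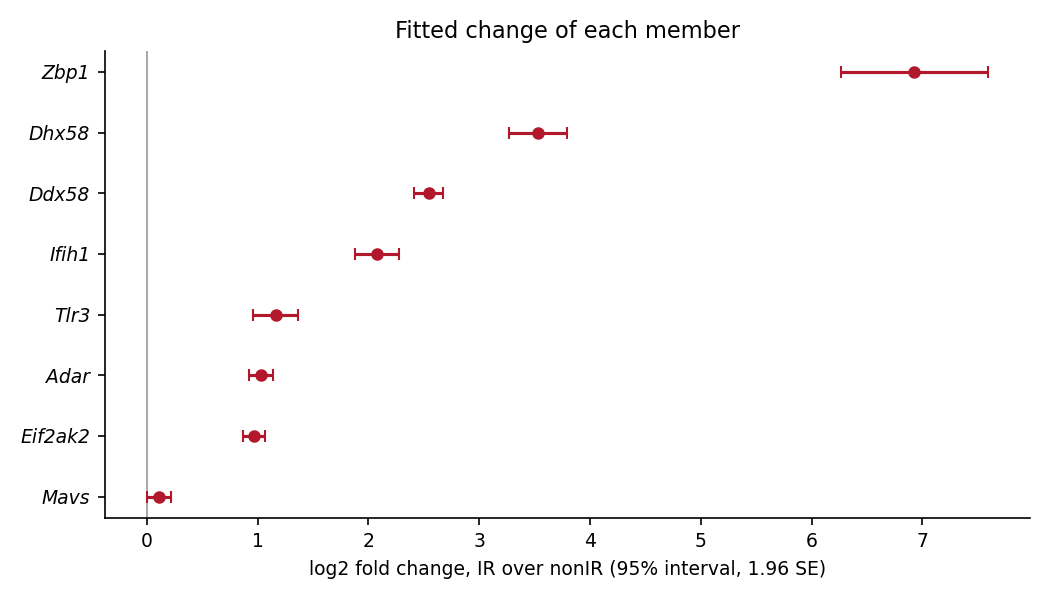
Log2 fold change of each gene, IR over nonIR (horizontal axis), with its 95% interval; rows run from the largest change to the smallest. Zbp1 stands at 6.93 with the widest interval, Dhx58, Ddx58 and Ifih1 follow at 3.53, 2.54 and 2.08, Tlr3, Adar and Eif2ak2 gather near 1, and Mavs lies at 0.11.

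Tlr3 (ENSMUSG00000031639, chromosome 8, 45395665 to 45411080, minus strand), the endosomal receptor, rose as well. Its counts were 1001 and 861 in IR and 374 and 464 in nonIR. Levels of 33.0 ± 0.843 CPM in IR and 14.8 ± 1.62 CPM in nonIR give a 2.24-fold rise (log2 fold change 1.16, SE 0.10, adjusted p = 3.66e-29). The groups did not overlap. The gene shares 381 bases of exon with an antisense gene for which the deposited counts have no entry.

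Zbp1 (ENSMUSG00000027514, chromosome 2, 173206612 to 173218923, minus strand), the Z-form sensor, was close to silent without irradiation. It had 377 counts in each IR library and 1 and 5 counts in the nonIR libraries, or 13.4 ± 1.09 CPM in IR and 0.104 ± 0.0954 CPM in nonIR. The fitted change was 122-fold (log2 fold change 6.93, SE 0.34, adjusted p = 1.86e-91). Of the genes tested, 0.497% had a larger one. Its size is poorly fixed by 6 nonIR counts. The ratio of summed counts, 754 in IR to 6 in nonIR, was 126 after scaling with an exact 95% interval of 57.8 to 346, which covers counting error only. The fitted fold was 75.6 without nonIR replicate 1 and 326 without nonIR replicate 2.

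The effector and the editor moved about as much as each other. Eif2ak2 (ENSMUSG00000024079, chromosome 17, 78852564 to 78882573, minus strand), the gene of PKR, had 4098 and 3624 counts in IR and 1994 and 1982 in nonIR. Its level was 137 ± 0.812 CPM in IR and 70.2 ± 3.30 CPM in nonIR, a 1.95-fold rise (log2 fold change 0.97, SE 0.05, adjusted p = 2.64e-77). Libraries of a group again lay close together, far from the other group. On the other strand, 174 of its 5113 bases of exon overlap Gm26637 and 47 overlap n-R5s29. Gm26637 had 105 and 63 counts in IR and 36 and 36 in nonIR, or 2.05% as many as Eif2ak2 over all libraries. For n-R5s29 this share was 0.0684%.

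Adar (ENSMUSG00000027951, chromosome 3, 89715022 to 89753446, plus strand) had 3288 and 3076 counts in IR and 1508 and 1635 in nonIR. At 113 ± 3.83 CPM in IR and 55.4 ± 0.799 CPM in nonIR it was 2.04-fold higher (SE 0.05 around a log2 fold change of 1.03, adjusted p = 1.12e-76). Adar is known to give a longer, interferon-inducible protein and a shorter constitutive one from different starts. The annotation lists 9 transcripts, and a count per gene adds them up. Its exons overlap those of Chrnb2 on the other strand over 1365 of 8118 bases. Chrnb2 had 390 and 314 counts in IR and 163 and 192 in nonIR, or 11.1% as many as Adar over all libraries, and the strand setting of the authors' counting is not known here.

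Levels can be compared roughly between genes once counts are divided by exon length. The length used merges the exons of all annotated transcripts and is not that of the transcripts made. The order of genes below depends on it. On that scale, TPM (counts per base of exon, scaled to sum to 1000000 in each library), Eif2ak2 was the most abundant of the 8 in IR, at 98.4 ± 2.23 TPM, followed by Mavs at 84.0 ± 1.15, Ddx58 at 60.6 ± 3.32, Adar at 51.1 ± 0.874 and Dhx58 at 40.8 ± 1.83 TPM. Tlr3 at 23.3 ± 0.984, Ifih1 at 19.5 ± 0.553 and Zbp1 with 13.3 and 14.6 TPM in its libraries closed the order in IR. No neighbours in it overlapped between libraries. In nonIR the order was Mavs at 75.1 ± 4.46 TPM, Eif2ak2 at 48.7 ± 2.45, and Adar at 24.2 ± 0.266 TPM. Ddx58, with 10.6 and 9.53 TPM in the nonIR libraries, and Tlr3, with 9.28 and 10.8 TPM, shared the next place. Then came Ifih1 at 4.45 ± 0.498, Dhx58 at 3.39 ± 0.438 and Zbp1 at 0.104 ± 0.0954 TPM. Ddx58 and Tlr3 were the only neighbours in the nonIR order whose libraries overlapped.

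**Figure D3:**
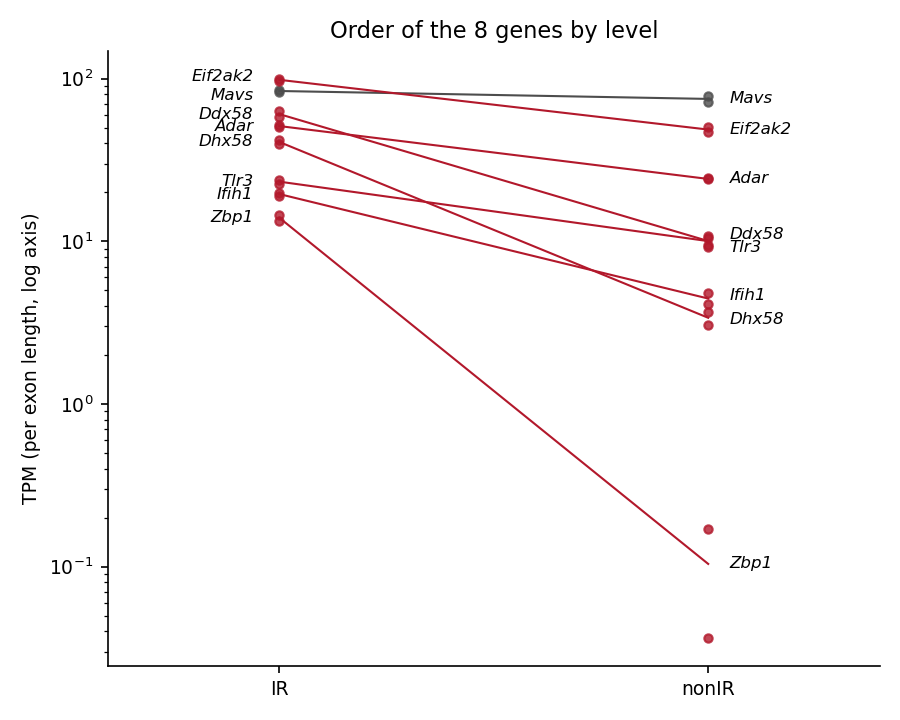
Level per exon length of each gene (vertical axis, TPM, log axis) in IR and nonIR; points are libraries and lines join the group means, with Mavs in grey. Lines fall from IR to nonIR for all genes, steeply for Zbp1 and Dhx58 and hardly at all for Mavs, which leads in nonIR at 75.1 TPM and is second to Eif2ak2 in IR.

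The balance among the sensors differed between the groups. The RIG-I-like receptors together had 1.47 and 1.41 TPM for each TPM of Mavs in the IR libraries, against 0.247 and 0.230 in the nonIR libraries. Within the receptors, Dhx58 stood at 2.09 ± 0.153 times the TPM of Ifih1 in IR and at 0.761 ± 0.0132 times in nonIR, so their order was opposite in the groups. The ratio of Ddx58 to Ifih1 was 3.16 and 3.04 in IR and 2.58 and 1.98 in nonIR, a narrower gap with more spread between the nonIR libraries. Adar stood at 2.54 and 2.70 times the TPM of Ifih1 in IR and at 5.86 and 5.08 times in nonIR. The ratio of Adar to Eif2ak2 was 0.505 and 0.535 in IR and 0.476 and 0.520 in nonIR, and here the groups overlapped. These ratios were formed after the values were seen. Their sizes, and so the order of Dhx58 and Ifih1 in each group, depend on the merged exon lengths. An exact permutation test (two-sided) of 2 against 2 libraries cannot give a p below 0.333, so none was run.

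Genes around the sensors did not all follow them. In the lists from here on, counts of calls stand against 30.4% higher and 30.3% lower among all genes tested. Of 13 regulators of the RIG-I-like receptors, 5 rose, 5 fell and 3 did not pass, with a median log2 fold change of 0.02. Ddx60, a helicase linked to RIG-I signalling, had 547 and 505 counts in IR and 6 and 11 in nonIR, a 61.5-fold rise (log2 fold change 5.94, SE 0.25, adjusted p = 5.12e-119). Ddx60 also needed its IR libraries to pass the filter on low counts. Trim25, a ubiquitin ligase that acts on the RIG-I pathway, rose 2.57-fold, with 235 ± 11.3 CPM in IR and 91.5 ± 3.80 CPM in nonIR (adjusted p = 1.72e-217). Among those that fell, chosen after their values were seen, were the deubiquitinase gene Cyld (log2 fold change -0.34) and Ywhae, a 14-3-3 protein that carries RIG-I to the mitochondria (-0.70).

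Between MAVS and the interferon genes, 5 of 20 genes rose, 3 fell and 12 did not pass, with a median log2 fold change of 0.03. Irf7, an interferon regulatory factor that is itself interferon-induced, had 868 and 799 counts in IR and 65 and 50 in nonIR (log2 fold change 3.86, SE 0.15, adjusted p = 3.02e-134). It shares 45 of its 3776 bases of exon with Phrf1 on the other strand. Phrf1 had 2667 and 2436 counts in IR and 2812 and 2861 in nonIR, over 6 times the counts of Irf7 (605% over all libraries). The part of antisense reads in the Irf7 counts was not tested. Tomm70a, a mitochondrial import receptor that binds MAVS, fell by 0.83 on the log2 scale (adjusted p = 2.05e-109), with 165 ± 1.99 CPM in IR and 294 ± 8.64 CPM in nonIR. The kinase gene Tbk1 rose slightly (log2 fold change 0.23, adjusted p = 2.53e-04). Irf3, the factor it phosphorylates, was not called (log2 fold change -0.18, adjusted p = 0.110). Tbk1 and Irf3 were picked with their values known.

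Of 8 interferon and cytokine genes that the pathway can switch on, 4 were in the table, and the 3 tested all rose. Of these 3, Ccl5 and Il6 passed the filter on low counts only through their IR libraries, so their direction was largely fixed in advance. Cxcl10, a T cell chemokine, had 818 and 763 counts in IR and 26 and 20 in nonIR (log2 fold change 5.11, SE 0.19, adjusted p = 1.06e-160). Ccl5, another chemokine, had 117 and 119 counts in IR and 0 and 5 in nonIR (adjusted p = 8.31e-26). Il6 had 13 and 14 counts in IR and 0 and 2 in nonIR, a scaled ratio of 13.6 (exact 95% interval for counting error 3.41 to 118). Ifnb1, the interferon beta gene, had 17 and 8 counts in IR and 0 in both nonIR libraries, and lay below the filter. Against a floor of 3 counts over the nonIR group its scaled ratio was 8.39, which leaves out counting error in the IR counts. More genes overall had a count in the IR libraries, as given above. Ccl5 and Il6 were picked with their values known.

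In the TLR3 arm, 3 of 5 tested genes rose, 1 fell and 1 did not pass, with a median log2 fold change of 0.35. Unc93b1, which escorts nucleic acid-sensing Toll-like receptors to endosomes, was 1.77-fold higher, with 9.81 ± 0.663 CPM in IR and 5.54 ± 0.0872 CPM in nonIR (log2 fold change 0.82, SE 0.18, adjusted p = 1.04e-05). Ticam1, the gene of the TLR3 adaptor TRIF, was at 32.4 ± 0.465 CPM in IR and 23.3 ± 1.00 CPM in nonIR, 1.39-fold higher (adjusted p = 8.97e-07). Of the other nucleic acid-sensing receptors, Tlr7 had 2 and 10 counts in IR and 13 and 8 in nonIR. Tlr8 had 0 and 3 counts in IR and Tlr9 had 10 and 0. Tlr8 and Tlr9 were at 0 in both nonIR libraries and below the filter. These receptors were picked with their values known.

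Death partners of ZBP1 changed little beside it. Of 6 genes, 5 were tested, 2 rose, 2 fell and 1 did not pass, all within 0.47 of 0 on the log2 scale. Mlkl, the pore-forming protein of necroptosis, was at 131 ± 1.55 CPM in IR and 181 ± 3.84 CPM in nonIR, a fall of 0.46 (SE 0.04, adjusted p = 1.13e-26). Fadd, the adaptor of caspase-8, fell by 0.47 (SE 0.13, adjusted p = 1.04e-03). Ripk3, the kinase that ZBP1 recruits and that acts on MLKL, was below the filter with 3 and 2 counts in IR and 6 and 3 in nonIR, a scaled ratio of 0.559 (exact interval 0.147 to 1.86). It was chosen after its values were seen.

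**Figure D4:**
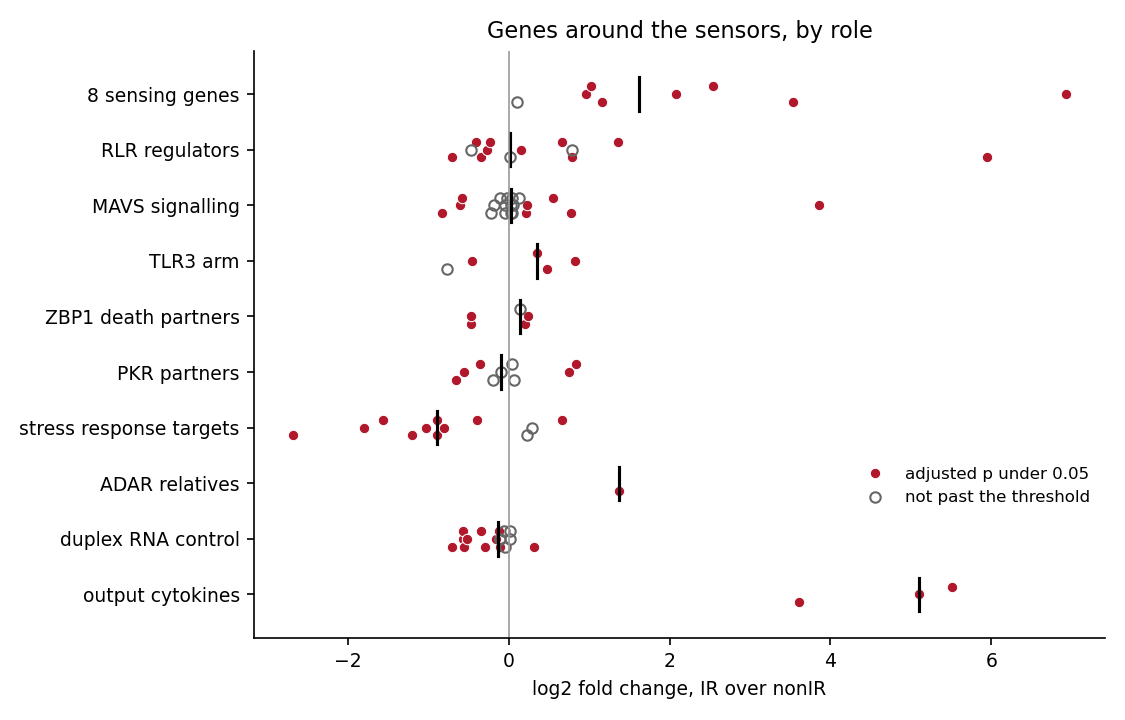
Log2 fold change, IR over nonIR (horizontal axis), of the tested genes in each list (rows); red points passed the threshold, open points did not, and the black bar is the median of the list. The 8 sensing genes and the output cytokines lie to the right of 0, most stress response targets lie to the left with a median of -0.89, and MAVS signalling genes gather around 0.03 with Irf7 apart at 3.86.

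Around PKR, 2 of 9 genes rose, 3 fell and 4 did not pass (median log2 fold change -0.09). Eif2ak3, which encodes PERK, the kinase that phosphorylates the same substrate under stress of the endoplasmic reticulum, rose 1.79-fold, with 41.5 ± 0.0355 CPM in IR and 23.2 ± 1.58 CPM in nonIR (log2 fold change 0.84, SE 0.09, adjusted p = 3.51e-21). Ppp1r15a, the inducible subunit of the phosphatase that reverses the mark, was at 39.4 ± 1.33 CPM in IR and 23.5 ± 0.568 CPM in nonIR, 1.68-fold higher (adjusted p = 1.21e-16). The substrate itself, eIF2 alpha, is encoded by Eif2s1, which fell by 0.56 on the log2 scale (adjusted p = 3.80e-40) and was chosen after its values were seen.

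Transcripts of the integrated stress response, which follows when eIF2 alpha is phosphorylated, were mostly lower. Of 12 genes, 9 fell, 1 rose and 2 did not pass, with a median log2 fold change of -0.89. Mthfd2, a mitochondrial folate enzyme, was 6.41-fold lower in IR, with 668 and 604 counts in IR and 3962 and 4242 in nonIR (log2 fold change -2.68, SE 0.06, adjusted p below 1e-300). Trib3, a pseudokinase that restrains ATF4, was 3.48-fold lower, at 13.6 ± 0.580 CPM in IR and 47.6 ± 1.28 CPM in nonIR (adjusted p = 3.32e-81). Atf4 itself, the central transcription factor, was lower, at 203 ± 2.17 CPM in IR and 467 ± 9.54 CPM in nonIR (adjusted p = 2.95e-274), and Ddit3, the death-linked factor CHOP, was the member that rose (log2 fold change 0.67, adjusted p = 1.07e-15). Neither was named by the rule; both were picked with their values known. Transcript levels say nothing of how much PKR or eIF2 alpha was phosphorylated.

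Among the relatives of Adar, Adarb1, which encodes the editing enzyme ADAR2, was the only one of 4 that passed the filter. It had 1061 and 914 counts in IR and 362 and 408 in nonIR, a 2.58-fold rise (log2 fold change 1.37, SE 0.10, adjusted p = 7.78e-40). Of 16 genes for proteins that bind, unwind or process duplex RNA, 10 fell, 1 rose and 5 did not pass, with a median log2 fold change of -0.13. Pnpt1, a mitochondrial ribonuclease known to limit double-stranded RNA from that organelle, was at 41.9 ± 1.15 CPM in IR and 68.1 ± 3.90 CPM in nonIR, 1.62-fold lower in IR (log2 fold change -0.70, SE 0.06, adjusted p = 5.93e-26). Dhx9, a helicase that resolves RNA duplexes, was at 264 ± 0.799 CPM in IR and 391 ± 11.3 CPM in nonIR, 1.48-fold lower in IR (log2 fold change -0.57, SE 0.03, adjusted p = 4.35e-64). Counts of calls in all these lists stand against the same background of 30.4% higher and 30.3% lower among all genes tested.

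Genes with the pattern nearest to the mean of the 8 were sought among those with a mean of at least 5 CPM, by Euclidean distance of centred log2(CPM + 1) over the 4 libraries. The 3 nearest were Mettl27 (distance 0.0399), Irf9 (0.0562) and Uba7 (0.0596). Mettl27 had 26.7 and 26.6 CPM in IR and 6.66 and 6.92 CPM in nonIR. Irf9 had 44.3 and 44.1 CPM in IR and 11.9 and 12.1 CPM in nonIR, and shares exon with Rnf31 on the same strand. Uba7 had 18.1 and 17.9 CPM in IR and 4.37 and 4.45 CPM in nonIR. With 2 groups of 2, likeness mostly reflects a similar size of change.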

How the data were processed

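The authors deposited raw counts for each Ensembl gene in each of the 4 libraries, as whole numbers without normalization or pooling. Per the submitters' processing notes, HISAT2, HISAT, HTSeq and DESeq2 and the build mm10 were used, though no version or role is stated. The sources used here do not give the annotation release or whether reads were counted by strand. Column names match the sample titles, which gave group and replicate. The description of nonIR replicate 2 carries the other replicate's number.

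Symbols, positions (1-based) and merged exon lengths come from GENCODE M21 (GRCm38), and 159 of 26561 identifiers had no symbol there. Counts were fitted with edgeR 4.0.16 in R 4.3.3: filterByExpr, TMM factors, robust glmQLFit and glmQLFTest on irradiation alone. P-values were Benjamini-Hochberg adjusted over 15298 genes, and the threshold was 0.05. CPM use TMM-scaled library sizes, and TPM divide counts by exon length and by the library's own sum. Errors are SD over 2 libraries. Each SE is the log2 fold change over the square root of F. For all 8 genes the spread came from the trend over genes, since their prior degrees of freedom were infinite. No libraries agreed within sampling noise: the mean chi-square per gene between replicates was 4.73 in IR and 3.38 in nonIR. The fit was tested on simulated data. DESeq2 1.42.0 and 8 other alternatives were run.

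The 8 genes and the lists were chosen with earlier results of these data known. Beyond the 8, the rule named the 2 most changed genes of each list that passed the threshold at a mean of at least 5 CPM, Ifnb1, the highest gene of each marker list, and the 3 genes nearest in pattern.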

Additional observations from a re-analysis of the deposited data

How the results depend on the processing

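Under 9 alternatives (no filter on low counts, DESeq2 size factors in edgeR, the DESeq2 Wald test, a non-robust fit, the replicate block, and leaving out each of the 4 libraries), 7 of the 8 sensing genes were called higher, and 8 in the fit without nonIR replicate 2, where Mavs passed. None was called lower in any of them. All 189 counts of calls stayed within 1.5 times the reported count, and the number of genes called among all tested ran from 8133 to 9301. Of 72 refitted log2 fold changes of the 8 genes, 71 kept direction and side of the threshold, as did all 198 of the other named genes. The ranges were 6.24 to 8.35 for Zbp1, 3.39 to 3.67 for Dhx58, 2.46 to 2.60 for Ddx58, 1.95 to 2.19 for Ifih1 and 0.03 to 0.17 for Mavs. Fits without a library leave a group with 1, which is then assumed to vary like the other group.

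Same-numbered libraries did not deviate together (correlation across genes -0.01), so the numbers were not taken to pair them. With the replicate block, 7 of the 8 genes were called higher and 9026 of all genes were called, against 9289 without it. Depth limits Zbp1 most, with 6 nonIR counts, and among the other genes named Ifnb1 (25 counts in IR, 0 in nonIR), Il6 (27 in IR, 2 in nonIR) and Ripk3 (5 in IR, 9 in nonIR).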
